A study of Sus scrofa with 6 samples.

Results

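MOV10L1 hosted 5 of the 4350 circRNAs in the table analysed here, and all 5 were intronic circRNAs (ciRNAs), of which the table held 1798. They are the rows whose listed host gene is MOV10L1. The host was selected on readouts of these data, its intronic circRNAs and their reads, so its levels are given as a description. RNA came from testes of Landrace boars aged 30 days (Young_D30, 3 boars) and 210 days (Adult_D210, 3 boars, sexually mature), with 1 library from 1 testis of each boar. Ribosomal and linear RNA had been depleted before sequencing. Over the rows of the table, back-splice reads, those that cross a circular junction, summed to 33091, 18445 and 18618 in Young_D30 replicates 1 to 3 and 23583, 14305 and 12701 in Adult_D210 replicates 1 to 3. These sums are not the libraries' depth: the 2552 exonic circRNAs of the table lay on 4 chromosomes and each had a read in Young_D30 replicate 1. Whole testis was sequenced, so a change in germ cell number and a change in RNA per germ cell cannot be told apart. By the paper's histology, young testes held no germ cells other than spermatogonia, whereas adult tubules held several cell layers and mature sperm.

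MOV10L1 is an RNA helicase of germ cells. It binds the long precursors of piRNAs, the small RNAs that guide PIWI proteins to silence transposons, and male mice without it lack piRNAs and are sterile. An intronic circRNA is left when an excised intron lariat escapes debranching: its donor end is joined to the branch point, and the tail between the branch point and the acceptor is lost.

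The 5 circRNAs lay on the minus strand of chromosome 5 (coordinates of Sscrofa10.2) and came from 2 introns of 1 transcript. ciRNA126 ran from 110741792 to 110742168, ciRNA125 from 110741789, ciRNA920 from 110741791 and ciRNA1220 from 110741795, each to the same donor end at 110742168. Their intron spans 110741770 to 110742168, a length of 399 nt. The free end, opposite the donor, lay 22 nt from the annotated acceptor in ciRNA126, 19 nt in ciRNA125, 21 nt in ciRNA920 and 25 nt in ciRNA1220. The 4 free ends thus fell within 7 neighbouring positions, and the circles spanned 374 to 380 nt, or 93.7% to 95.2% of the intron. ciRNA1221 (110742389 to 110742534) came from the next intron upstream in the transcript, 196 nt long, and its free end was 50 nt from that intron's acceptor. Between the introns lie 170 bases, from 110742169 to 110742338. No exonic circRNA of MOV10L1 was in the table, in which exonic circRNAs lay only on chromosomes other than 5.

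A shared donor end was not particular to MOV10L1, since all 1798 intronic circRNAs began at the donor of their intron, a property of how they were called. Over the table the free end lay a median of 20 nt from the acceptor. The window of 19 to 25 nt, taken from the MOV10L1 circRNAs themselves, held 382 intronic circRNAs (21.2%) and 2912 of the 6299 intronic reads (46.2%). At the acceptor itself lay 414 (23.0%), with 17.3% of the reads. The 4 MOV10L1 circles of the shared donor end fell in the broad mode away from the acceptor, and the free end of ciRNA1221 fell in its sparse tail, where 4 circRNAs had a distance of 50 nt.

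**Figure D1:**
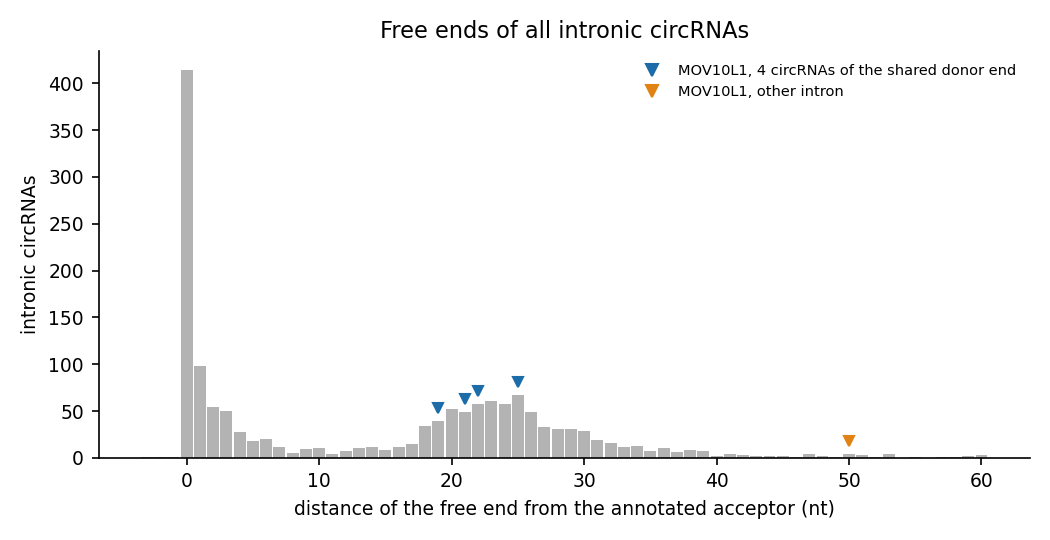
Number of intronic circRNAs (vertical axis) at each distance of the free end from the annotated acceptor in nt (horizontal axis), for distances up to 60 nt; 278 circRNAs with larger distances are not drawn. Triangles mark the MOV10L1 circRNAs, 4 between 19 and 25 nt and 1 at 50 nt.

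ciRNA126 had 19, 13 and 4 reads in Young_D30 replicates 1 to 3 and 17, 1 and 1 in Adult_D210 replicates 1 to 3. It was the only MOV10L1 circRNA seen in every library, as were 20 of the 1798 intronic circRNAs (1.11%), and by reads it tied with 2 others for places 10 to 12. ciRNA125 had 9, 0 and 3 reads in Young_D30 and 0 in each Adult_D210 library. ciRNA920 had 0, 0 and 2 reads in Young_D30 and 5, 0 and 0 in Adult_D210. ciRNA1220 and ciRNA1221 had 1 read each, both in Adult_D210 replicate 1. A single read was also the whole support of 922 intronic circRNAs (51.3%).

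Together the 4 circRNAs of the shared donor end had 28, 13 and 9 reads in Young_D30 and 23, 1 and 1 in Adult_D210. Adult_D210 replicate 1 stood apart from the other adult libraries and lay within the range of the young libraries, so the groups overlapped. It held 92.0% of the intron's 25 adult reads, against 43.1% of all adult intronic reads. Among the 32 introns with at least 10 adult reads, that library's share had a median of 53.0%, and 2 introns, MOV10L1 included, had a share of at least 92.0%. The MOV10L1 intron reached those 10 reads only through Adult_D210 replicate 1, so its place among the 32 is a description only.

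**Figure D2:**
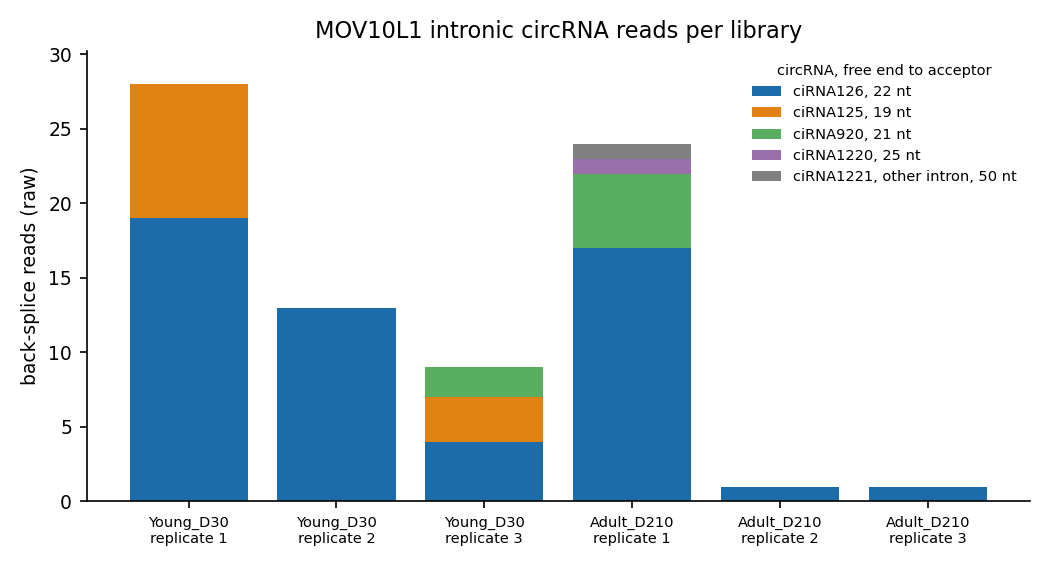
Raw back-splice reads (vertical axis) of the MOV10L1 circRNAs in each library (horizontal axis), coloured by circRNA and distance of the free end from the acceptor. Adult_D210 replicate 1, with 24 reads, stands between the young libraries, and the other adult libraries have 1 read each.

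Scaled to depth, the intron's reads came to 0.749, 0.298 and 0.207 per 1000000 mapped reads in Young_D30 and to 0.468, 0.0247 and 0.0205 in Adult_D210. The last 2 values are below the level of 3 reads in those libraries (0.0742 and 0.0615), which was taken as the floor. The means were 0.418 ± 0.290 (SD, n = 3) in Young_D30 and 0.171 ± 0.257 (SD, n = 3) in Adult_D210, a difference smaller than the spread within either group. All intronic circRNAs together were at 30.6 ± 8.07 (SD, n = 3) and 18.4 ± 4.17 (SD, n = 3) per 1000000 mapped reads. As a share of each library's intronic reads, the MOV10L1 intron made up 1.92% (95% Wilson interval 1.33 to 2.76), 1.004% (0.588 to 1.71) and 0.899% (0.474 to 1.70) in Young_D30. In Adult_D210 the shares were 2.099% (1.40 to 3.13), 0.131% (0.0231 to 0.739) and 0.146% (0.0259 to 0.825). The interval of Adult_D210 replicate 1 overlapped those of the young libraries and not those of the other adult libraries, whose intervals in turn overlapped those of Young_D30 replicates 2 and 3 but not that of replicate 1. Intervals and floors cover counting error only: without molecular identifiers, several reads may stem from 1 molecule.

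**Figure D3:**
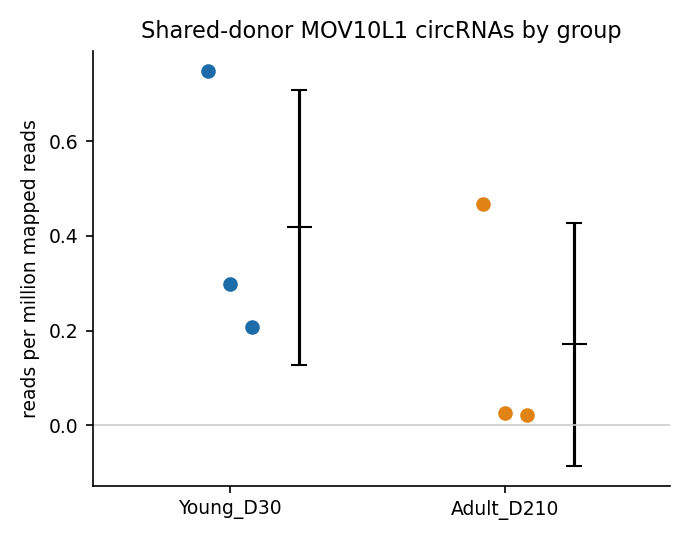
Reads of the MOV10L1 circRNAs with the shared donor end per 1000000 mapped reads (vertical axis) in each library (points) by group (horizontal axis), with the mean and SD of 3 libraries beside them. The adult mean of 0.171 rests on replicate 1, at 0.468.

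On the deposited SRPBM scale, in which the authors scaled reads by the library's mapped reads and the read length of 150, ciRNA126 was at 3.39, 1.99 and 0.614 in Young_D30 and at 2.30, 0.165 and 0.137 in Adult_D210. The group means were 1.997 ± 1.39 (SD, n = 3) and 0.869 ± 1.24 (SD, n = 3). ciRNA125 was at 1.61, 0 and 0.461 in Young_D30 and at 0 in the adult libraries. It reached the minimum of 10 reads, set for the test and for reporting in full, through its young reads alone, so the filter itself favoured a difference in this direction. Its young mean was at least 1.58-fold higher than an adult level of 3 reads per library, the bound that 0 reads allow. Without Young_D30 replicate 1, which held 9 of the 12 reads, the young mean was 0.527 of that level, so the difference rested on that library.

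The free end at 22 nt (ciRNA126) took most of the intron's reads, 55 of 75 (73.3%, 95% Wilson interval 62.4 to 82.0). Its share was 72.0% (58.3 to 82.5) in the pooled Young_D30 reads and 76.0% (56.6 to 88.5) in the pooled Adult_D210 reads. The end at 19 nt (ciRNA125) had 24.0% (14.3 to 37.4) of the 50 young reads and 0 of the 25 adult reads, an upper limit of 13.3%. These intervals do not overlap, but pooled reads do not carry the differences between boars. In Young_D30 the end at 19 nt had 32.1% (17.9 to 50.7) of the reads of replicate 1, 0 of 13 in replicate 2 (upper limit 22.8%), and 33.3% (12.1 to 64.6) of the 9 reads of replicate 3. These intervals overlap. The end at 22 nt had 67.9% (49.3 to 82.1) of the reads of replicate 1, 13 of 13 in replicate 2 (lower limit 77.2%) and 44.4% (18.9 to 73.3) of the reads of replicate 3, so the intervals of replicates 2 and 3 do not overlap. In Adult_D210 nearly all information on the ends came from replicate 1, in which the end at 21 nt (ciRNA920) held 21.7% (9.66 to 41.9), beside 22.2% (6.32 to 54.7) in Young_D30 replicate 3.

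The MOV10L1 intron ranked 10 of 1512 introns by intronic back-splice reads and held 1.19% of them. It was 1 of 19 introns (1.26%) with reads in all 6 libraries and 1 of 18 with at least 4 circRNAs, whereas 1316 introns had a single circRNA. Of the 196 introns with several free ends, 22 had at least 20 reads, and among these the leading end took a median of 70.1% of the reads and the ends spread over a median of 3.5 nt from nearest to farthest. In the MOV10L1 intron these were 73.3% and 6 nt. The spread was wider in 6 of the 22 introns and narrower in 14, and the same in 2, MOV10L1 included.

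PTBP1, which encodes a splicing regulator, had the most intronic circRNAs in the table. Its 20 circRNAs shared the donor of 1 intron of 1033 nt, with free ends 312 to 334 nt from the acceptor. Their 174 reads numbered 20, 56 and 29 in Young_D30 and 11, 25 and 33 in Adult_D210, so every library had at least 11. The leading end held 19.0% of the reads, against 73.3% in MOV10L1. The difference was not tested.

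**Figure D4:**
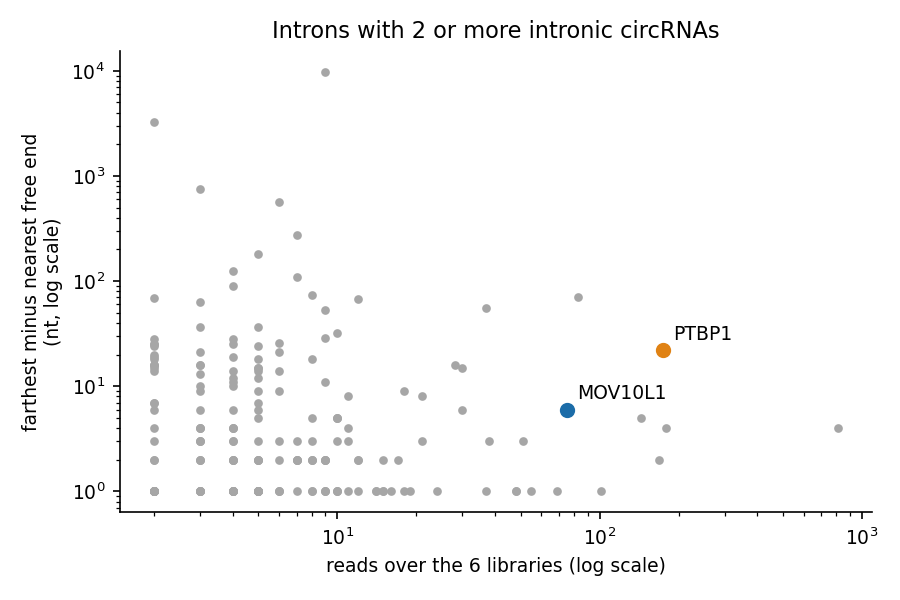
Reads over the 6 libraries (horizontal axis, log scale) and spread of the free ends in nt (vertical axis, log scale) of the 196 introns with several intronic circRNAs, 1 point each. MOV10L1 has 75 reads and a spread of 6 nt, PTBP1 174 reads and 22 nt.

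Of the 5 MOV10L1 circRNAs, 2 had at least 10 reads over the 6 libraries and entered the edgeR quasi-likelihood test of Adult_D210 against Young_D30 over all circRNAs. In that test 111 of 1341 circRNAs (8.28%) were called (adjusted p below 0.05, with the log2 fold change 1 or more in either direction), 46 higher and 65 lower in Adult_D210. Exonic circRNAs without a read in Young_D30 replicate 1 are not in the table, a condition that bears on both counts and on the median fold change. With mapped reads as library size 77 were called, 9 higher and 68 lower, and the median log2 fold change moved from -0.42 to -0.90. The calls fell to 39, 42 and 59 without Adult_D210 replicate 1, Young_D30 replicate 3 and Adult_D210 replicate 2. Of the 71 intronic circRNAs tested, 2 (2.82%) were called, ciRNA329 of PPP1R1B and ciRNA426 of GBF1, both higher in Adult_D210 and named here after their values were seen.

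Of the 2 MOV10L1 circRNAs tested, edgeR called 0. DESeq2 did not call ciRNA126 and gave ciRNA125 no adjusted p, so ciRNA125 could not be called there. In edgeR 1 of the 2, ciRNA125, had an unadjusted p under 0.05, as did 337 of all 1341 tested (25.1%) and 13 of the 71 intronic ones (18.3%). Since ciRNA125 passed the filter only through the group where it was high, nothing is read from that p. The log2 fold change of ciRNA126 was -0.66 (SE 0.81, edgeR adjusted p = 0.642), against a median of -0.31 over the intronic circRNAs tested. It was lower in 2 of 3 adult libraries than in every young library. The value rested on Adult_D210 replicate 1: without it the log2 fold change was -2.80 (edgeR adjusted p = 0.172, the lowest of 0.172 to 0.918 over the alternatives). With mapped reads as library size the log2 fold change of ciRNA126 was -1.10 (adjusted p = 0.480), against an intronic median of -0.79. The main fit scaled to back-splice sums with TMM, so the condition on exonic circRNAs given above bears on the value of -0.66 too. The edgeR adjusted p of ciRNA125 was 0.198, and its fitted fold change is not a bound, because the adult libraries had 0 reads. With the reads of the shared donor end summed and every other intron treated alike, 110 of 1340 features (8.21%) were called, and the MOV10L1 intron, at a log2 fold change of -0.73 (adjusted p = 0.575), was not among them.

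**Figure D5:**
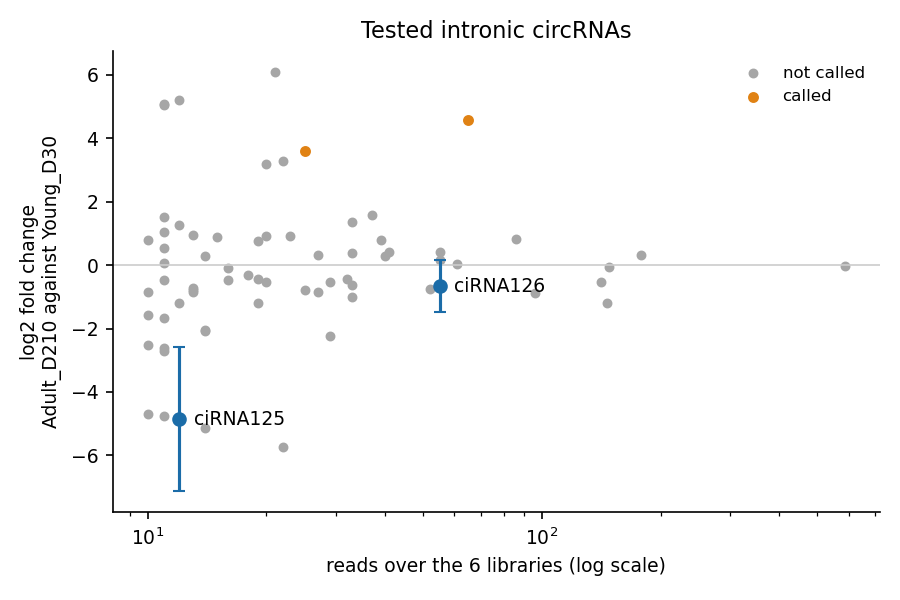
Log2 fold change of Adult_D210 against Young_D30 from edgeR (vertical axis) and reads over the 6 libraries (horizontal axis, log scale) for the 71 intronic circRNAs tested, 2 of them called. The MOV10L1 circRNAs carry bars of 1 standard error; fitted values of circRNAs with 0 reads in a group, such as ciRNA125, depend on the prior count.

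Of 31 genes of the piRNA pathway, MOV10 included, 4 hosted circRNAs in the table, 13 in all. Besides MOV10L1, 2 hosted an intronic circRNA, with 3 reads together: PIWIL1, which encodes a PIWI protein, and TDRD9, a Tudor-domain helicase of the pathway. MORC1, needed for transposon repression in male germ cells, and TDRD9 hosted 6 exonic circRNAs. Since exonic circRNAs in the table came from 4 chromosomes, list genes on other chromosomes had no exonic circRNA to count here. TDRD1, also on the list, hosted none in the table, whereas the paper reported a TDRD1 circRNA as significantly upregulated in the sexually mature group. Of the 5 circRNAs of the list that were tested, edgeR called 0 higher and 0 lower, beside 8.28% of all tested in either direction. DESeq2 called 0, with no adjusted p given for ciRNA125, beside 104 of the 1341 entered. An unadjusted p under 0.05 in edgeR was found for 3, beside 25.1% of all tested. ciRNA125 is among these 3 and passed the filter only through its young reads, so nothing is read from this tally. The median log2 fold change of the 5 tested, -0.66, was that of ciRNA126 itself, beside -0.42 over all tested. The 3 circRNAs of other hosts had a median of 1.22.

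The most abundant of them, circRNA1228 of TDRD9, had 36, 12 and 21 reads in Young_D30 and 55, 46 and 25 in Adult_D210. The groups overlapped, and its log2 fold change was 1.22 (SE 0.41, edgeR adjusted p = 0.0820), or 0.70 with mapped reads as library size (adjusted p = 0.465). circRNA1229 of TDRD9 had 2, 0 and 2 reads in Young_D30 and 0, 8 and 0 in Adult_D210, and its log2 fold change of 1.29 (SE 1.51, edgeR adjusted p = 0.618) rested on Adult_D210 replicate 2. With mapped reads as library size its log2 fold change was 0.82 (edgeR adjusted p = 0.783). circRNA11907 of MORC1 had 31, 20 and 16 reads in Young_D30 and 13, 4 and 5 in Adult_D210. Every young library lay above every adult library, with a log2 fold change of -1.29 (SE 0.54, edgeR adjusted p = 0.154), or -1.77 with mapped reads as library size (adjusted p = 0.128). Exonic circRNAs without a read in Young_D30 replicate 1 are not in the table, a condition that bears on these values too.

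Across the 6 libraries, the circRNAs of other hosts most like ciRNA126 were circRNA10405 of PKD2 (Pearson r = 0.961), circRNA10661 of ZNF385D (0.952), circRNA11817 of GOLGB1 (0.949), circRNA11570 of ENSSSCG00000011765 (0.946) and ciRNA74 of PPP6R1 (0.944). They are the 5 highest of 1339 candidates over 6 points that share library depth, and so describe a pattern only. As in ciRNA126, reads of ciRNA74 were 9, 7 and 1 in Young_D30 and 7, 1 and 0 in Adult_D210.

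Marker genes of testis cells were looked for among the hosts. Of 6 Leydig cell markers 2 hosted circRNAs, CYP17A1 and STAR, and CYP17A1, an enzyme of androgen synthesis, had the most reads. Leydig marker reads came to 12, 6 and 4 in Young_D30 and 12, 14 and 16 in Adult_D210, not scaled to depth. Of 6 germ cell markers 1 hosted a circRNA (KIT, 4 reads, all in Young_D30 replicate 3), and of 8 Sertoli cell markers 1 (GATA4, with 7, 0 and 1 reads in Young_D30 and 0 in each Adult_D210 library). ACTA2, 1 of 2 peritubular markers, had 1 read. The 7 meiotic, 9 spermatid, 2 endothelial and 2 immune markers hosted 0, so the germ cell content of Adult_D210 replicate 1 was not tested. Exonic circRNAs in the table came from 4 chromosomes and each had a read in Young_D30 replicate 1. Exonic circRNAs of markers elsewhere, or seen only in adults, had no row to count, so nothing is read from markers without circRNAs. In the RefSeq order of genes on Sscrofa11.1, used for names only, the neighbours TRABD, PANX2, MLC1 and TTLL8 hosted 0 circRNAs in the table. The table held no exonic circRNA of chromosome 5, where MOV10L1 lies, so nothing is read from the neighbours.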

How the data were processed

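Cutadapt trimming, TopHat2 mapping, TopHat-Fusion and CIRCExplorer2 were the authors' steps; the submitters' processing notes name Sscrofa10.2. For each library the authors deposited an untransformed count of junction reads and its SRPBM, a normalized signal, and for each circRNA its coordinates, intron, exon number and host. Dividing counts by SRPBM gave mapped reads (37364412 to 49179118 per library). The members and lists were chosen with earlier results of these data known.

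Deposited counts were tested with edgeR 4.0.16 in R 4.3.3 (TMM, at least 10 reads over 6 libraries, robust quasi-likelihood F test, Benjamini-Hochberg adjustment over all tested), after the code was tested on simulated data. The quasi-likelihood form of edgeR 4 was settled after the calls of 8 other forms had been seen, which are reported as added alternatives. Alternatives were DESeq2 1.42.0, no TMM, mapped reads, filters of 5 reads or none, intronic circRNAs alone, reads summed per intron, a replicate block and leaving out each library. Within each group, pairs of libraries disagreed beyond counting noise, with chi-square per degree of freedom between 3.87 and 4.97, and each library stood for 1 boar.

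Every MOV10L1 circRNA is reported, those with at least 10 reads in full. Likeness was Pearson r of log2 reads per 1000000 mapped reads with 0.5 added to the reads. Of 482 hosts listed by Ensembl identifier, 0 matched a piRNA pathway gene. Python 3.11.15 with SciPy 1.17.1 was used. Sequences were not analysed here.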

Additional observations from a re-analysis of the deposited data

How the results depend on the processing

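The log2 fold change of ciRNA126 was negative and not called in the 22 alternatives run, the summed intron included (-2.80 to -0.18 without each library), and that of ciRNA125 was negative in 19 (-5.35 to -4.78 without each of 4 libraries), called in 0, with 1 adjusted p, that of DESeq2, given as NA. Without Young_D30 replicate 1 or 3 it fell under the filter. Over the table, 111 circRNAs were called, 1 with intronic circRNAs alone, where 71 were tested, and 39 to 81 without each library. Other planned settings, apart from the replicate block, gave 77 to 128.

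The edgeR form was picked with calls in view: besides the one kept, 8 forms (the older quasi-likelihood fit or a supplied trended dispersion, TMM before or after the filter, totals kept or recomputed), chosen after seeing the data, gave 83 to 117 calls. In these ciRNA126 was at -0.75 to -0.67 (adjusted p 0.679 to 0.743) and ciRNA125 had an adjusted p of 0.202 to 0.222, so neither was called in any form.

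With a replicate block 33 were called, ciRNA126 was at -0.81 (adjusted p = 0.551) and ciRNA125 was not called. Each circRNA's group mean was subtracted from its log2 level in each library. These deviations correlated at 0.051, -0.015 and -0.031 between same-numbered young and adult libraries, so the numbers are not taken to pair boars.

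The adult minus young mean of MOV10L1 reads, scaled to mapped reads, was -10.5, and ranged from -17.3 (without Adult_D210 replicate 1) to -3.28 (without Young_D30 replicate 1); the other scalings gave -8.00 to -4.73. The median free-end distance of 22 nt was 22 weighted by reads and 21 with at least 2 reads. With 76 MOV10L1 reads in all and 1 read in each of 2 adult libraries, depth limits any comparison of free-end use between the groups.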
